A study of Arabidopsis thaliana with 13 samples.

Results

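The 38 genes described here encode enzymes that turn phenylalanine into lignin and flavonoids, and the MYB and bHLH proteins that regulate them, in dark-grown Arabidopsis thaliana seedlings. They were chosen by locus as known members of the pathway, but with earlier results of these data known. They are 38 of the 33033 genes in the table. They comprise 8 genes of the general phenylpropanoid steps, 9 of the lignin branch, 12 of the flavonoid branch, 5 activators and 4 repressors. After 6 h of white light, seedlings stood in darkness at 22 °C for 4 days and were then moved for 4 h into liquid medium holding the solvent DMSO (mock), 30 µM pifithrin-alpha (PFT-alpha, a synthetic compound that inhibits p53 in animal cells) or 10 µM ACC, the compound from which plants make ethylene. The 13 libraries of polyadenylated RNA from whole seedlings fall into 5 groups, namely Col-0 wild type given mock, PFT-alpha or ACC (3 libraries each) and etr1-1 given mock or PFT-alpha (2 libraries each). The mutant etr1-1 carries a dominant altered form of the ethylene receptor ETR1 and does not respond to ethylene. The submitters call the 3 wild-type libraries of a treatment biological replicates. Nothing says whether replicates came from separate cultures, so p-values measure the spread between these libraries, which may be technical.

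Phenylalanine ammonia-lyase (PAL), cinnamate 4-hydroxylase (C4H) and 4-coumarate:CoA ligase (4CL) make p-coumaroyl-CoA, from which one branch builds the monomers of lignin and another, opened by chalcone synthase (CHS), builds flavonols, anthocyanins and proanthocyanidins. In Arabidopsis seedlings MYB11, MYB12 and MYB111 switch on the early flavonoid genes for flavonols, while MYB75 (PAP1) and the bHLH protein TT8 act together on the late genes for anthocyanins. MYB4, MYB7, MYB32 and MYBL2 belong to the repressors of the pathway, and flavonoid synthesis is known to be low in darkness and to rise in light.

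The flavonoid enzymes CHS, FLS1, UGT78D1 and UGT78D2 and the activators MYB111 and MYB75 fell under ACC in a fit that pairs the wild-type libraries by replicate number. The planned fit, which compares group means, called none of the tested members in any of 7 comparisons. Between PFT-alpha and mock no member passed either fit. The repressor MYB4 was about 1 log2 unit higher under PFT-alpha in both genotypes, with libraries that did not overlap those of mock, and passed the paired fit only against ACC.

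Facts about the libraries bear on every value below. The deposited values were TPM, a measure of transcript abundance corrected for gene length and library size, and fragment steps in low values gave estimated depths of 19.9 to 28.9 M fragments, so that 1 TPM corresponded to 19.6 to 28.6 fragments for a transcript of 1500 bases. Replicate 3 of all 3 wild-type groups stood apart on the first principal component, which held 44.7% of the variance (scores of 74.4 to 87.0, where the remaining 10 had scores of -35.2 to -9.5). In those 3 libraries 4 root endodermis markers summed to 79.9 to 149 TPM against 429 to 850 TPM elsewhere, 5 xylem markers to 33.6 to 41.3 against 70.2 to 132 TPM, and 12 photosynthetic markers to 49605 to 60683 against 21067 to 34397 TPM; none of these markers was at 0 in any library. The library labelled etr1-1 mock 1 went against its label: the sum of 4 ethylene-induced genes was 253 TPM there, within the range of the ACC libraries (215 to 256 TPM), against 61.0 TPM in etr1-1 mock 2 and 56.3 to 74.0 TPM in wild-type mock. Its seed transcripts summed to 343 TPM, against 4213 to 4751 TPM in the other etr1-1 libraries. In whole seedlings, fewer cells of a type and less RNA per cell cannot be told apart.

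Sequences upstream of the genes are shown because many enzymes of the pathway carry AC elements, short cytosine- and adenine-rich motifs that plant R2R3 MYB proteins are known to bind. The 500 bases before each start codon were searched on both strands, in the TAIR10.1 reference from RefSeq, for AC-I (ACCTACC), AC-II (ACCAACC), AC-III (ACCTAAC) and the G-box CACGTG, a motif bound by bHLH and bZIP proteins. The motifs do not contain one another. Stretches of 30 bases around a match, on the gene's strand and with the motif in capitals, are given for C4H (chr2:12995948-12995977, minus strand), F5H (chr4:17139690-17139719, minus strand), CCoAOMT1 (chr4:16310662-16310691, plus strand), CHS (chr5:4488607-4488636, plus strand), CHI (chr3:20431498-20431527, minus strand), UGT78D1 (chr1:10814774-10814803, plus strand), UGT78D2 (chr5:5609518-5609547, minus strand), MYB7 (chr2:7256986-7257015, minus strand) and MYB75 (chr1:21235223-21235252, minus strand).
C4H: ggtctttctttACCTACCaccatcaacaac
F5H: ttgattataaaACCTACCtctctaatcaca
CCoAOMT1: aggagagtttcACCAACCccggaccggttt
CHS: ccgtccatctaACCTACCacactctcatct
CHI: taactattgctACCTACCcttctctcttct
UGT78D1: cttcaagtggtACCTACCactgtccagagc
UGT78D2: aagagatcggtACCAACCacgaaacacgag
MYB7: aaaaaagttttACCTAACaaaaggtccaaa
MYB75: ccttttttccgtCACGTGtttttataaatt

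An AC element of at least one kind lay in this window for 22 of the 38 members, against 11.65% of 27443 protein-coding genes searched the same way. The matches fell on 7 of 8 general genes, 6 of 9 lignin genes, 7 of 12 flavonoid genes, 1 of 5 activators (TT8) and 1 of 4 repressors (MYB7). AC-I was found in 9 members (2.16% of all genes), AC-II in 15 (5.47%) and AC-III in 5 (4.66%). CHS, CHI, UGT78D1 and F5H shared the AC-I motif within 150 bases of the start codon, and UGT78D2 had AC-II in the same stretch. F3H had AC-I there as well, on the opposite strand (143 bases before the start codon). The G-box lay in 10 of 38 members (9.34% of all genes), 6 of them flavonoid genes. These letters were not found as AC elements in the windows of FLS1, MYB111 and MYB4. Of the stretches printed, that of MYB7 lies upstream of the annotated gene start, and the others lie inside the annotated gene before the start codon. The matches describe sequence and were not tied to binding in these seedlings.

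**Figure D1:**
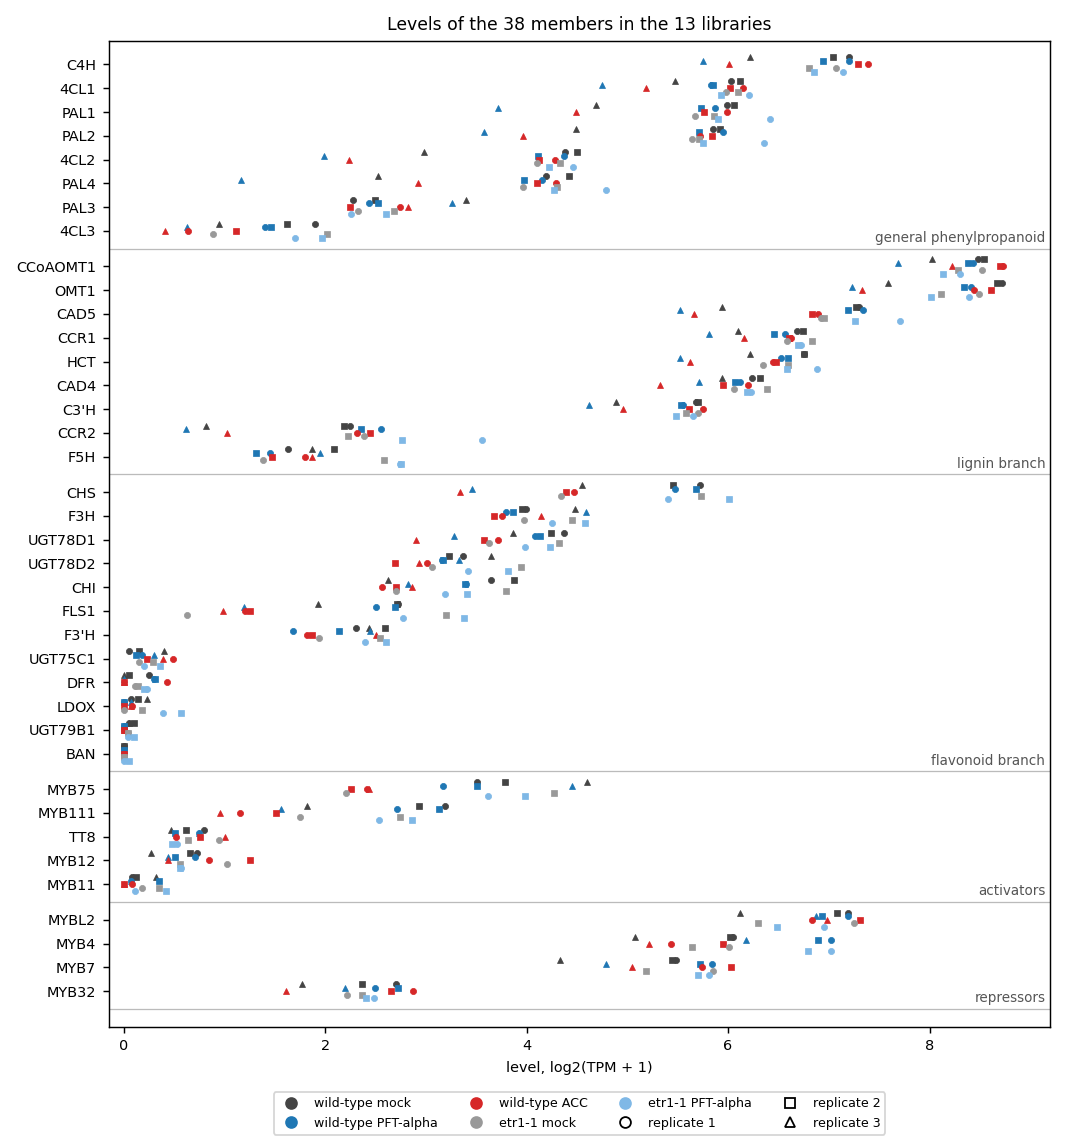
Levels of all 38 members on a log2(TPM + 1) axis, grouped by branch and ordered by mean, with 1 point per library (colour, group; shape, replicate). The lignin-branch genes CCoAOMT1 and OMT1 were highest and 7 late flavonoid genes and regulators lay near 0.

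The pathway was unevenly filled in these seedlings. CCoAOMT1 and OMT1, methyltransferases of lignin monomer synthesis, had the highest means over the 13 libraries (329 and 304 TPM), followed by CAD5, a cinnamyl alcohol dehydrogenase (123 TPM), the repressor MYBL2 (121 TPM) and C4H (120 TPM). Of the flavonoid enzymes CHS had the highest mean TPM, and F3H, FLS1, F3'H, CHI, UGT78D1 and UGT78D2 lay between 0.54 and 23.1 TPM in individual libraries. Across the 13 libraries the general genes other than C4H ranged from 3.76 to 9.55 TPM (PAL3), 0.33 to 3.05 TPM (4CL3), 12.1 to 84.2 TPM (PAL1), 10.97 to 81.1 TPM (PAL2), 1.24 to 26.7 TPM (PAL4), 25.9 to 72.8 TPM (4CL1) and 2.96 to 21.7 TPM (4CL2). The lignin genes not yet given ranged from 1.48 to 5.75 TPM (F5H), 45.1 to 117 TPM (HCT), 23.6 to 52.7 TPM (C3'H), 55.2 to 113 TPM (CCR1), 0.53 to 10.8 TPM (CCR2) and 38.9 to 82.4 TPM (CAD4). Wild-type PFT-alpha replicate 3 held the lowest value of PAL1, PAL2, PAL4, 4CL1, 4CL2, HCT, C3'H, CCR1 and CCR2, but not of PAL3, 4CL3, F5H or CAD4. The late flavonoid steps were barely present. DFR, LDOX and UGT79B1, enzymes of anthocyanin synthesis, and BAN, the reductase that leads to proanthocyanidins in the seed coat, did not exceed 0.48 TPM in any library, and BAN was listed at 0 in 12 of 13. UGT75C1, an anthocyanin glucosyltransferase, MYB11 and TT8 reached at most 1.01 TPM. These 7 genes did not pass the filter of 1 TPM in 2 libraries, so 31 of the 38 members were tested: 8 general, 9 lignin, 7 flavonoid, 3 activators and 4 repressors. The seed coat markers TT2, TT12 and TT16 summed to 0 to 0.13 TPM, and TT12 was listed at 0 in every library.

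The values of F3H and CCR1 are uncertain on TAIR10.1 annotation, because 93.8% and 77.2% of their exon bases overlap genes on the other strand and whether strand was used in the authors' quantification is not stated. FLS1 is the flavonol synthase, F3'H the flavonoid 3'-hydroxylase, CHI the chalcone isomerase and F3H the flavanone 3-hydroxylase, and UGT78D1 and UGT78D2 attach rhamnose and glucose to flavonols. In the lignin branch, HCT and C3'H carry the shikimate-ester shunt, CCR1 and CCR2 reduce cinnamoyl-CoA esters, and F5H opens the route to syringyl units.

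**Figure D2:**
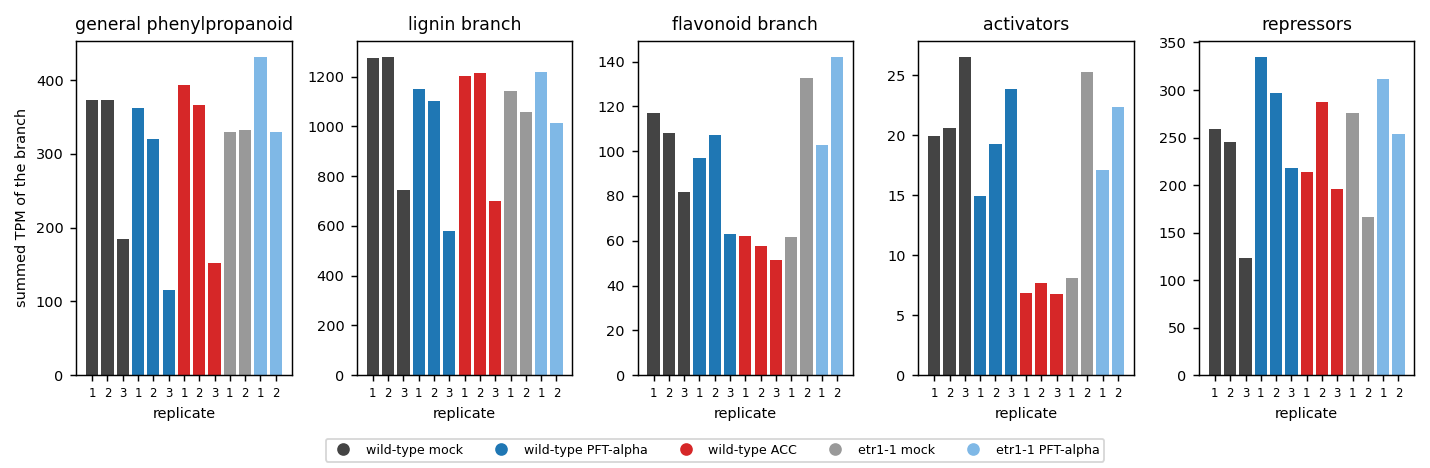
Summed TPM of each branch in each of the 13 libraries, with 1 bar per library and colours for groups. Flavonoid and activator sums were lowest in the 3 ACC libraries and the library labelled etr1-1 mock 1, and general and lignin sums were lowest in wild-type replicate 3.

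ACC was compared with mock in wild type to ask how the genes stood 4 h after the ethylene precursor was given. In the paired fit the flavonoid enzymes CHS, FLS1, UGT78D1 and UGT78D2 and the activators MYB111 and MYB75 fell and the repressor MYB7 rose. The flavonoid enzymes CHI, F3H and F3'H and the general and lignin genes did not pass it. The summed level of the 12 flavonoid genes was 117, 108 and 81.7 TPM in mock replicates 1, 2 and 3 and 62.3, 57.8 and 51.2 TPM under ACC, so every ACC library lay below every mock library. The summed level of the 5 activators was 19.9, 20.6 and 26.5 TPM in mock and 6.85, 7.70 and 6.72 TPM under ACC. These sums did not overlap either, but MYB75 and MYB111, which were called, made up most of them. Their means were 15.4 and 5.76 TPM in mock and 4.17 and 1.34 TPM under ACC. Mean MYB12 and TT8 were higher under ACC (0.85 and 0.71 TPM) than in mock (0.48 and 0.55 TPM). Mean MYB11 was lower under ACC (0.02 against 0.13 TPM).

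In the planned fit, with limma on log2(TPM + 1) and a mean per group over all 13 libraries, 0 of 31 members were called at an adjusted p of 0.05, and 2 of the 21091 tested genes were called (0.00948%, both lower). At an unadjusted p under 0.05 there were 4 members (UGT78D1, UGT78D2, MYB111 and MYB75) and 1769 tested genes. In the paired fit, which takes the replicate number as a block over the 9 wild-type libraries, 6 of 31 members (19.4%) fell and 3.93% of all tested genes were called lower, and 1 member (3.23%) rose and 1.57% of all tested genes were called higher. By the check given with the methods, same-numbered wild-type libraries deviated alike, but so did replicates 1 and 2 across numbers. The check thus set replicate 3 apart and did not show that replicates 1 and 2 pair by number. The paired values are printed because they change the calls. Every ACC library lay below every mock library in 6 of 31 members (19.4%, against 7.78% of tested genes), the same 6 that fell in the paired fit, and no member lay wholly above mock (4.54% of tested genes). By branch, the paired fit called 4 of 7 flavonoid genes and 2 of 3 activators lower, 1 of 4 repressors higher, and 0 of 8 general and 0 of 9 lignin genes.

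CHS (AT5G13930, chr5:4488476-4490264), the first enzyme of the flavonoid branch, stood at 51.8, 42.9 and 22.4 TPM in mock replicates 1, 2 and 3 and at 21.1, 20.0 and 9.12 TPM under ACC. Each ACC library was below the lowest mock library, and replicate 3 was the lowest in both groups. The difference was -1.18 on the log2(TPM + 1) scale (0.442-fold; SE 0.24, adjusted p = 0.0345 in the paired fit; SE 0.61, adjusted p = 0.727 in the planned fit). FLS1 (AT5G08640, chr5:2803833-2805606), which makes flavonols from dihydroflavonols, gave 5.62, 5.57 and 2.81 TPM in mock and 1.3, 1.38 and 0.98 TPM under ACC. All ACC libraries lay near 1 TPM and below all mock libraries. The difference was -1.31 (SE 0.24, adjusted p = 0.0244 in the paired fit; 0.604 in the planned fit).

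The flavonol glycosyltransferases moved the same way. UGT78D1 (AT1G30530, chr1:10814612-10816615) stood at 19.7, 17.9 and 13.6 TPM in mock and at 12.1, 10.9 and 6.47 TPM under ACC, a difference of -0.76 (SE 0.12, adjusted p = 0.0121 in the paired fit; 0.454 in the planned fit). The highest ACC library was below the lowest mock library. UGT78D2 (AT5G17050, chr5:5607788-5609589) stood at 9.29, 8.40 and 11.5 TPM in mock and at 7.06, 5.46 and 6.65 TPM under ACC. Its groups were separate but close, with a difference of -0.53 (SE 0.12, adjusted p = 0.0471 in the paired fit; 0.521 in the planned fit). CHI (AT3G55120, chr3:20430059-20431597) gave 11.5, 13.7 and 5.16 TPM in mock and 4.91, 5.5 and 6.27 TPM under ACC. It was lower under ACC in replicates 1 and 2 and higher in replicate 3, and with a difference of -0.67 it passed neither fit (adjusted p = 0.231 paired, 0.728 planned). F3H and F3'H differed by -0.28 and -0.38 and passed neither fit.

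**Figure D3:**
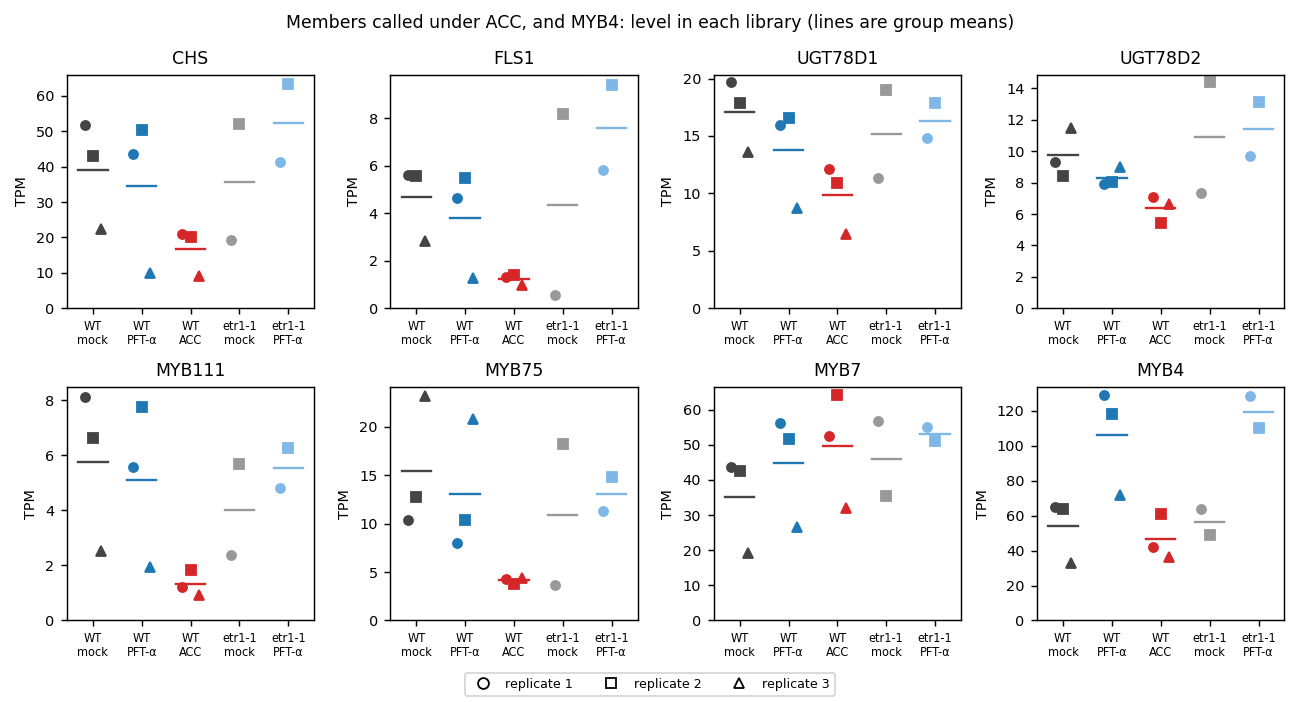
TPM in each library of the 7 members called under ACC in the paired fit, and of MYB4, by group (shape, replicate; line, group mean). CHS, FLS1, UGT78D1, UGT78D2, MYB111 and MYB75 had their lowest group means under ACC, with the library labelled etr1-1 mock 1 at or near those levels. Wild-type PFT-alpha replicate 3 lay within the ACC range for CHS, FLS1 and UGT78D1. MYB4 was highest in both PFT-alpha groups.

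Among the activators, MYB111 (AT5G49330, chr5:19998823-20001572) stood at 8.13, 6.62 and 2.53 TPM in mock and at 1.23, 1.85 and 0.94 TPM under ACC. Every ACC library was below 2 TPM and below the lowest mock library. The difference was -1.44 (0.369-fold; SE 0.25, adjusted p = 0.0204 paired; 0.308 planned). MYB75 (AT1G56650, chr1:21233555-21235292) stood at 10.4, 12.8 and 23.2 TPM in mock and at 4.33, 3.77 and 4.41 TPM under ACC. The ACC libraries lay close together and below all mock libraries. The difference was -1.59 (0.331-fold; SE 0.23, adjusted p = 0.00969 paired; 0.291 planned). MYB12 was close to the detection filter at 0.65, 0.58 and 0.21 TPM in mock and 0.80, 1.39 and 0.36 TPM under ACC, and passed neither fit. Its difference was 0.30 (SE 0.21, adjusted p = 0.544 paired), and unlike MYB111 it was not lower under ACC in any of the 3 pairs.

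Among the repressors, MYB7 (AT2G16720, chr2:7255473-7256831) stood at 43.8, 42.6 and 19.1 TPM in mock and at 52.6, 64.3 and 32.1 TPM under ACC. The groups overlapped because replicate 3 was low in both, while each ACC library exceeded the mock library of its number. The difference was 0.52 (1.43-fold; SE 0.11, adjusted p = 0.0408 paired; SE 0.39, adjusted p = 0.978 planned). When 1 library was left out of the planned fit, the MYB7 difference was 0.14 without mock replicate 3, 0.31 without ACC replicate 2 and 0.80 without ACC replicate 3. MYB4 (AT4G38620, chr4:18053360-18055040), which represses C4H and other genes of the general steps, gave 65.1, 64.0 and 32.8 TPM in mock and 42.2, 60.8 and 36.1 TPM under ACC, a difference of -0.18 (SE 0.15, adjusted p = 0.626 paired). MYBL2 gave 145, 134 and 68.4 TPM in mock and 113, 157 and 126 TPM under ACC, and MYB32 gave 5.49, 4.14 and 2.42 and then 6.33, 5.30 and 2.05 TPM. Both overlapped in part with mock and differed by 0.25 and 0.10, with adjusted p of 0.670 and 0.872 in the paired fit.

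C4H (AT2G30490, chr2:12993625-12996012), the most abundant general gene by mean TPM, stood at 146, 131 and 73.3 TPM in mock and at 166, 155 and 63.5 TPM under ACC. The groups overlapped and the difference was 0.07 (SE 0.11, adjusted p = 0.829 paired). CCoAOMT1 (AT4G34050, chr4:16310409-16312308), the most abundant lignin gene by mean TPM, stood at 357, 372 and 260 TPM in mock and at 422, 415 and 298 TPM under ACC. It was higher in each pair by 0.20 in the mean (SE 0.10, adjusted p = 0.354 paired), which did not pass. 4CL3 (AT1G65060, chr1:24167202-24171635), the ligase tied to flavonoid synthesis, stood at 2.74, 2.08 and 0.92 TPM in mock and at 0.56, 1.16 and 0.33 TPM under ACC. It was lower in each pair but overlapped between groups, and it did not pass the planned or the paired fit (adjusted p = 0.662 and 0.0789). It was called in the fit without the library labelled etr1-1 mock 1 and with a term for wild-type replicate 3 (the reduced fit; -0.77, SE 0.18, adjusted p = 0.0285), with library weights (adjusted p = 0.0430) and in the block over 12 libraries (adjusted p = 0.0436). The reduced fit called 7 members lower (6.52% of tested genes) and 1 higher (2.76%), and the block fit over all 13 libraries called UGT78D1 and MYB111 lower (adjusted p = 0.0413 and 0.0277; 2.56% of tested genes lower and 0.811% higher).

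The median difference over the 31 tested members was -0.20 (22 of 31 below 0), against -0.00127 for all tested genes, with medians of -0.67 for the 7 flavonoid genes, -0.14 for the 8 general and -0.14 for the 9 lignin genes, and 0.17 for the 4 repressors. All 3 pairs were below 0 in 14 of 31 members (45.2%), against 19.3% of all tested genes. With library weights 6 members were called lower and 0 higher (6.61% and 3.55% of tested genes). They were MYB111, CHI, MYB75, UGT78D1, FLS1 and 4CL3, so CHS, UGT78D2 and MYB7 were not called there. The block over 12 libraries did not call UGT78D2 either. The paired calls depended on which pairs were kept. Without pair 1 the fit called 153 tested genes and 0 members, and without pair 2 it called 0 tested genes. Without pair 3 it called 637 tested genes and 5 members, all lower (FLS1, CHI, CHS, MYB111 and MYB75; 2.18% of tested genes were lower and 0.844% higher), so CHI was called there and UGT78D1, UGT78D2 and MYB7 were not. Photosynthetic, seed, xylem and endodermis marker sums overlapped between ACC and mock. The endodermis sum was lower under ACC in pairs 1 and 2 (429 against 725 and 671 against 747 TPM) and higher in pair 3 (149 against 99.3 TPM), and its part in the result was not tested.

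**Figure D4:**
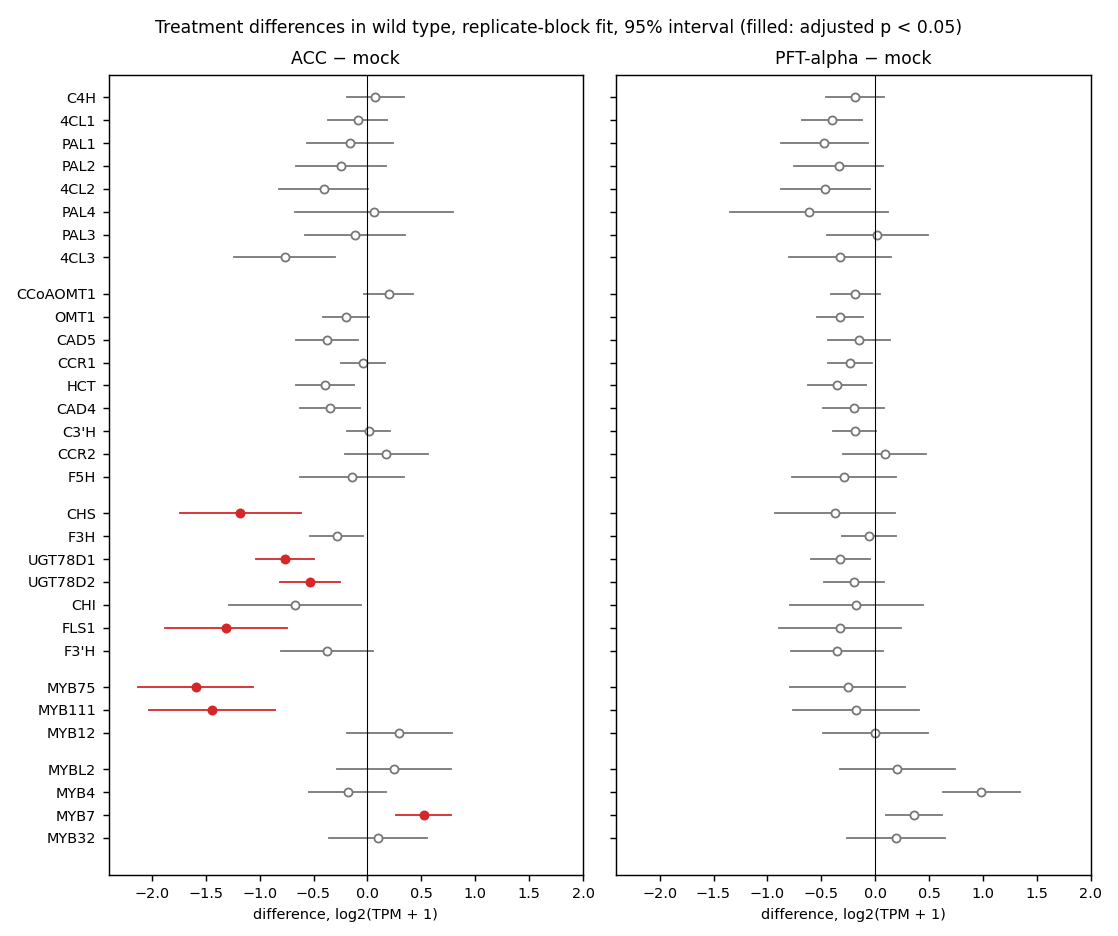
Difference of ACC and of PFT-alpha from mock in wild type for the 31 tested members on the log2(TPM + 1) scale, with 95% intervals of the paired fit; filled points passed an adjusted p of 0.05. Filled points occur only under ACC, mainly among flavonoid enzymes and activators, and the PFT-alpha interval of MYB4 lies farthest above 0.

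PFT-alpha was compared with mock in wild type to ask what the small molecule alone did to the pathway. No member was called by any of the 4 fits, and the same held for all tested genes (0% in either direction in the planned, block, paired and reduced fits). At an unadjusted p under 0.05 the planned fit had 1 member, MYB4, and 147 tested genes, and the paired fit had 9 members and 817 tested genes. With limma's library weights 606 tested genes were called, among them MYB4 higher (0.89, adjusted p = 0.00356; 1.57% of tested genes higher) and F5H lower (1.3% of tested genes lower).

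MYB4 stood at 65.1, 64.0 and 32.8 TPM in mock and at 129, 118 and 71.6 TPM under PFT-alpha. Every PFT-alpha library was above every mock library, and replicate 3 was lowest in each group. The difference was 0.98 (1.98-fold; 95% interval 0.62 to 1.34, SE 0.15, adjusted p = 0.622 in the paired fit; SE 0.31, adjusted p = 1 in the planned fit), with 0.98, 0.87 and 1.1 in the 3 pairs. By p in the paired fit MYB4 ranked 9 of 21091 genes. It was the 1 member of 31 (3.23%) whose groups did not overlap, a pattern seen in 1.08% of tested genes upward and in 2.57% downward, where no member showed it.

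The other repressors did not pass. MYB7 stood at 56.1, 51.7 and 26.7 TPM under PFT-alpha, above the mock library of the same number in each pair, with a difference of 0.36 (SE 0.11, adjusted p = 1). MYBL2 stood at 145, 121 and 116 TPM and MYB32 at 4.64, 5.60 and 3.57 TPM, differences of 0.20 and 0.19 with an adjusted p of 1 each. The activators also overlapped with mock. MYB111 stood at 5.56, 7.77 and 1.95 TPM and MYB75 at 8.0, 10.4 and 20.8 TPM, differences of -0.18 and -0.26. MYB12 was at 0.63, 0.42 and 0.36 TPM and differed by -0.00101 from mock.

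Most enzymes lay slightly below mock without passing. CHS stood at 43.5, 50.3 and 9.96 TPM under PFT-alpha, a difference of -0.37 that came mainly from replicate 3, since replicate 2 was above its mock partner. FLS1 stood at 4.66, 5.47 and 1.28 TPM and UGT78D1 at 16.0, 16.6 and 8.73 TPM, with differences of -0.33 each. C4H stood at 146, 122 and 52.8 TPM and CCoAOMT1 at 344, 332 and 205 TPM, differences of -0.19 and -0.18. The median over 31 members was -0.20, against -0.02 for all tested genes. Of the members 25 of 31 were below 0 and 19.4% above 0, against 42.8% above 0 for all tested genes. In 15 of 31 members (48.4%) all 3 pairs were below 0, against 17.3% of all tested genes. The medians of the general branch in the pairs were -0.02, -0.23 and -0.82, so the third pair gave most of its difference. In that pair the PFT-alpha library had the smaller endodermis sum (79.9 against 99.3 TPM) and the larger photosynthetic sum (60683 against 49605 TPM), and the part of these in the result was not tested.

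Both treatments were then compared directly. The comparisons of ACC and of PFT-alpha with mock share the mock libraries, and this one reuses the treated libraries of both. The planned fit called 0 of 31 members and 0 tested genes (0%), with 3 members and 1168 tested genes at an unadjusted p under 0.05. The paired fit called MYB4 and MYB75 higher under PFT-alpha than under ACC (2 of 31, 6.45%, against 1.7% of tested genes) and no member lower (0.915%). MYB4 lay between 71.6 and 129 TPM under PFT-alpha and between 36.1 and 60.8 TPM under ACC, a difference of 1.17 (2.25-fold; SE 0.15, adjusted p = 0.0148 paired; 0.520 planned). MYB75 lay between 8.0 and 20.8 TPM and between 3.77 and 4.41 TPM, a difference of 1.34 (2.53-fold; SE 0.23, adjusted p = 0.0313 paired; 0.723 planned). MYB111 differed by 1.26 and just missed the threshold (SE 0.25, adjusted p = 0.0505).

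Groups did not overlap for 4 of 31 members, all higher under PFT-alpha (MYB75, MYB4, UGT78D2 and MYB111; 12.9%, against 4.89% of tested genes), and for none in the other direction (4.35%). All 7 tested flavonoid genes had a difference above 0, with a median of 0.44, against -0.01 for all tested genes. CHS differed by 0.80 (adjusted p = 0.168 paired) and FLS1 by 0.98 (adjusted p = 0.0988 paired). The reduced fit called MYB75, MYB4, FLS1 and MYB111 higher (3.34% of tested genes) and CCoAOMT1 lower (-0.38, SE 0.09, adjusted p = 0.0357; 1.9%), and the block fit over 13 libraries called MYB4 alone (adjusted p = 0.0448; 0.0853% higher and 0.0474% lower). Without pair 1, 2 or 3 the paired fit called 0 members in this comparison, and 2, 1 and 151 tested genes.

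In etr1-1 the library labelled mock 1 decides what the mock group looks like. CHS stood at 19.3 TPM in it, within the ACC range, and at 52.1 TPM in etr1-1 mock 2. FLS1 stood at 0.54 and 8.19 TPM, MYB75 at 3.63 and 18.3 TPM, and MYB111 at 2.37 and 5.68 TPM in mock 1 and 2. CHS, FLS1 and MYB75 in mock 1 were within or below the range of the ACC libraries, and MYB111 lay between the ACC and the wild-type mock libraries. In mock 2, CHS and FLS1 were above all wild-type mock libraries. The flavonoid sum was 61.7 TPM in mock 1, between 51.2 and 62.3 TPM of the ACC libraries, and 133 TPM in mock 2.

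Against wild type under mock, no member was called by the planned, block or reduced fit, and no member's groups were separate. The planned fit called 6 of 21091 tested genes (0.0284%, all higher), groups were separate in 7.12% of tested genes upward and in 4.31% downward, and no member had an unadjusted p under 0.05. The block fit called 0.0806% of tested genes and the reduced fit 1.34%. The group means and SDs (n = 2) were 35.7 ± 23.2 TPM for CHS and 10.9 ± 10.3 TPM for MYB75, so these means describe neither library. C4H stood at 134 and 110.5 TPM and CCoAOMT1 at 367 and 310.5 TPM, both within the wild-type mock range.

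Under PFT-alpha the etr1-1 libraries were compared with wild type. The planned fit called 0 of 31 members and 6 tested genes (0.0284%), with 1 member, F5H, at an unadjusted p under 0.05, and the block fit called 0 members (0.0616% of tested genes). Groups did not overlap in 10 of 31 members, all higher in etr1-1 (32.3%, against 15.3% of tested genes upward and 16.6% downward): the general genes 4CL1, 4CL3, PAL1 and PAL4, the lignin genes CCR1, CCR2, CAD4 and F5H, and FLS1 and UGT78D2. Wild-type replicate 3 was low in most general and lignin genes. In the general and lignin genes listed, the highest wild-type library was replicate 1 or 2, except in F5H, where it was replicate 3. F5H (AT4G36220, chr4:17137313-17139777) stood at 1.74, 1.48 and 2.85 TPM in wild type and at 5.71 and 5.75 TPM in etr1-1, so both mutant libraries exceeded all wild-type libraries. It was the member called in the reduced fit (1.27, SE 0.20, adjusted p = 0.00933; 2.35% of tested genes higher and 1.51% lower) and was not called in the planned fit (1.18, SE 0.33, adjusted p = 0.429). In etr1-1 mock F5H was 1.61 TPM in library 1 and 5.01 TPM in library 2, and seed marker sums moved with it (343 against 4213 TPM); their part in the result was not tested.

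PFT-alpha was finally compared with mock within etr1-1, and its effect was set against that in wild type. No member was called in the planned fit (3 tested genes, 0.0142%), the block fit (0.0237%) or the reduced fit (0.0237%), and 1 member, MYB4, had an unadjusted p under 0.05 in the planned fit. MYB4 stood at 63.6 and 48.9 TPM in mock and at 129 and 110.1 TPM under PFT-alpha. Both PFT-alpha libraries exceeded both mock libraries, including the library labelled mock 1, and lay within the wild-type range under the same treatment. The difference was 1.08 (SE 0.38, adjusted p = 1 planned; adjusted p = 0.308 with the block over 13 libraries). Without the library labelled mock 1 it was 1.27 (SE 0.22, adjusted p = 0.395), where mock is 1 library whose spread is taken from the remaining groups.

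The difference of the MYB4 effect between genotypes, etr1-1 minus wild type, was 0.10 (SE 0.49, adjusted p = 1), and 0 members were called for this interaction in any of the 3 fits that could be made (0.00474% of tested genes in the planned fit, 0.00948% in the block fit and 0.019% in the reduced fit). Within etr1-1 groups did not overlap in 7 of 31 members, all higher under PFT-alpha (CCR2, PAL1, PAL2, CAD5, MYB32, F5H and MYB4; 13.4% of tested genes upward and 24.5% downward). MYB7 stood at 56.9 and 35.3 TPM in mock and at 55.1 and 51.1 TPM under PFT-alpha, and MYBL2 at 152 and 77.6 and then 123 and 88.3 TPM, so both overlapped. The median over the 7 flavonoid genes was 0.20 with all 13 libraries. FLS1 differed by 1.16 with mock 1 and by -0.13 without it, and CHS by 0.67 and by -0.03.

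**Figure D5:**
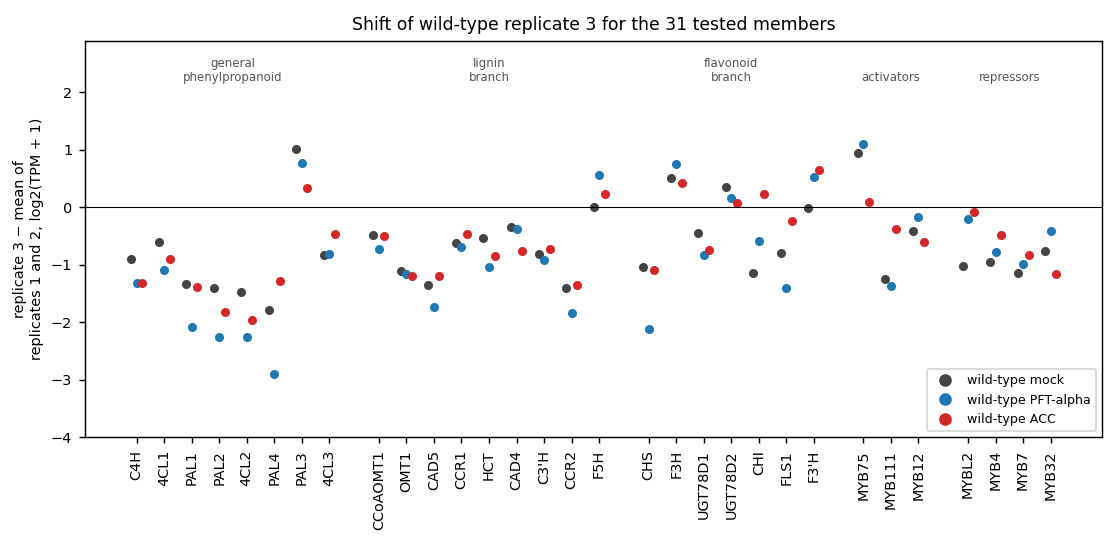
Replicate 3 minus the mean of replicates 1 and 2 in each wild-type group for the 31 tested members, on the log2(TPM + 1) scale. Most general and lignin genes lie below 0 in all 3 groups, and PAL3, F5H, F3H, UGT78D2 and MYB75 lie above.

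Within each wild-type group, replicate 3 stood apart from replicates 1 and 2 in most members. Replicate 3 minus the mean of replicates 1 and 2 had a median over the 31 members of -0.80 in mock, -0.83 under PFT-alpha and -0.72 under ACC, against -0.01, -0.13 and -0.15 for all tested genes. The general branch shifted most (-1.12, -1.70 and -1.30), with 7 of 8 genes lower in each group. PAL1 was 62.3, 65.9 and 24.7 TPM in mock and 57.5, 52.1 and 12.1 TPM under PFT-alpha, so replicate 3 was the lowest library each time. The exception, PAL3, an ammonia-lyase of low level, was 3.83, 4.62 and 9.55 TPM in mock and 4.40, 4.77 and 8.59 TPM under PFT-alpha, with replicate 3 the highest. In the lignin branch 8 of 9 genes were lower in each group. The flavonoid genes split, since F3H and UGT78D2 were higher in replicate 3 in all 3 groups while CHS and UGT78D1 were lower. Replicate 3 of mock and of PFT-alpha had the highest MYB75 (23.2 and 20.8 TPM), whereas under ACC its MYB75 was 4.41 TPM beside 4.33 and 3.77 TPM.

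Further genes of the pathway gave at most 1 call a list in each comparison of the paired fit, which called 3.93% of all tested genes lower under ACC. Of 22 further genes of lignin and phenolic esters 19 were tested, and the paired fit called UGT84A2, a sinapate glucosyltransferase, lower under ACC (-0.64, adjusted p = 0.0289). It called CCOAOMT7, a methyltransferase, lower under PFT-alpha than under ACC (-0.77, adjusted p = 0.0184, against 0.915% of tested genes lower). UGT84A2 was 47.8, 46.5 and 48.6 TPM in mock and 35.5, 28.1 and 27.6 TPM under ACC, without overlap. Of 12 further flavonoid genes 7 were tested, and CHIL, a chalcone isomerase-like protein that aids CHS, was lower under ACC (-0.64, adjusted p = 0.0497) at 8.65, 7.95 and 5.10 TPM in mock and 4.13, 4.46 and 3.99 TPM under ACC. Of 27 further regulators 18 were tested, and EGL3, a bHLH partner of MYB75, was lower under ACC (-0.91, adjusted p = 0.0295) at 3.64, 4.19 and 6.07 TPM in mock and 1.83, 1.83 and 2.23 TPM under ACC. MYB6 was higher under PFT-alpha than under ACC (0.66, adjusted p = 0.0399, against 1.7% of tested genes higher). The reduced fit called 5 of the 18 regulators lower under ACC (EGL3, SPL9, MYB6, LBD39 and HY5, against 6.52% of tested genes) and 4 higher under PFT-alpha than under ACC (EGL3, MYB6, LBD39 and HY5, against 3.34%). In the lignin and flavonoid lists it called SNG1, UGT84A2 and CHIL lower and CCOAOMT7 higher under ACC (2.76% of tested genes higher). Against ACC, PFT-alpha had UGT84A2 and CHIL higher and CCOAOMT7 lower (1.9% lower). Under PFT-alpha, SNG1, ELI3-1 and CHIL were called higher and CCOAOMT7 lower in etr1-1 than in wild type (2.35% higher and 1.51% lower). CCOAOMT7 was lower in etr1-1 in mock as well (-1.46 in the reduced fit, where etr1-1 mock is 1 library). It stood at 19.2 and 4.42 TPM in etr1-1 mock 1 and 2 and at 14.3, 14.4 and 3.06 TPM in wild-type mock. The planned fit called none of the tested genes in these lists, nor any of the 5 Kelch F-box genes.

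Kelch F-box proteins mark PAL or, in the case of KFB-CHS, CHS for degradation, and all 5 genes were tested. KFB39 was 122, 131 and 45.9 TPM in mock, 370.3, 301 and 141 TPM under PFT-alpha and 75.8, 91.7 and 60.7 TPM under ACC, so PFT-alpha libraries lay above all others of wild type. Against mock its difference was 1.46 and was not called (adjusted p = 0.606 paired, 1 planned). KFB50 differed from mock by 0.83, KFB01 by 0.30, KFB20 by 0.22 and KFB-CHS by -0.27 under PFT-alpha, and none was called. KFB50 stood at 53.5, 54.0 and 78.6 TPM in mock and at 94.6, 92.6 and 147 TPM under PFT-alpha. Like KFB39 it did not overlap with mock, a pattern seen in 1.08% of tested genes upward, but it reached 152 TPM under ACC. The paired fit called KFB39 higher under PFT-alpha than under ACC (1.73, adjusted p = 0.0133; 1.7% of tested genes higher).

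In etr1-1, KFB50 was 64.2 and 60.0 TPM in mock and 149 and 125 TPM under PFT-alpha, and KFB20 was 138 and 164 and then 247 and 222 TPM. KFB39 was 98.2 and 126 TPM in mock and 550.01 and 498 TPM under PFT-alpha. Groups did not overlap in any of these genes, a pattern seen in 13.4% of tested genes upward. The KFB39 difference of 2.23 was called in the block fit (adjusted p = 0.0340, with 0.0237% of tested genes called), whose numbers were not shown to pair etr1-1 with wild-type libraries. It was not called in the planned fit (adjusted p = 1) or without the library labelled mock 1 (2.05, adjusted p = 0.122 in the reduced fit).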

How the data were processed

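Gene levels in 13 libraries were read from the table of TPM values that the authors deposited, per the file headers. The 5 columns of group means in it were not used. The submitters' processing notes name fastp, HISAT2, HISAT, StringTie, RSEM and DESeq2 and the build TAIR10, with no versions or roles. Per the labels' protocols, libraries came from a stranded poly(A) kit; whether strand was used in counting is not given in the sources used here. TPM keeps no depth, so depth was estimated from the steps between low values (81.8% to 86.8% of them within 0.15 of a whole step), which gave 19.9 to 28.9 M fragments.

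Genes that reached 1 TPM in 2 or more libraries (21091 of 33033) were tested on log2(TPM + 1) with limma 3.58.1 in R 4.3.3 (two-sided, with an intensity trend), with Benjamini-Hochberg adjustment over all tested genes at 0.05. Fold changes are on the log2(TPM + 1) scale, which understates the change of low genes. The planned fit has a mean per group over 13 libraries. The others are a replicate block over 13 libraries, the same block over the 9 wild-type libraries (the paired fit), and the reduced fit of 12 libraries, which leaves out the library labelled etr1-1 mock 1 and has a term for wild-type replicate 3. The paired fit was used because the deviations of same-numbered wild-type libraries from their group means correlated above 0.1 in 9 of 9 pairs (r 0.276 to 0.773), although no label says what a number shares. Of 18 wild-type pairs with different numbers 6 were also above 0.1, all between replicates 1 and 2 (r up to 0.544, where mock 1 with ACC 1 had 0.276), so the check separates replicate 3 more than it separates replicates 1 and 2. Of 12 same-numbered pairs of wild type with etr1-1, 4 were above 0.1. The planned and the paired fit were tested on simulated data for ACC against mock. The block over 13 libraries and the reduced fit were not.

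Values in every library are given for members called by any of the 4 fits, the member with the highest mean TPM of each enzyme branch, and the tested regulators. CHI, F5H and single values of other members named beside these were chosen after their values were seen. Members and lists were chosen with earlier results of these data known. Alternatives were other scalings, pseudocounts, filters, library weights and leaving out libraries. The paired fits without a replicate number and the block over 12 libraries, without the library labelled etr1-1 mock 1, were added after seeing the data. Motifs and positions come from the TAIR10.1 reference of RefSeq.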

Additional observations from a re-analysis of the deposited data

How the results depend on the processing

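Counts of tested genes called depended on how the replicates were modelled. The replicate block over 13 libraries called 710 genes for ACC against mock (planned fit 2), 28 for PFT-alpha against ACC (0), 17 for etr1-1 against wild type in mock (6), 13 under PFT-alpha (6), 5 for PFT-alpha in etr1-1 (3) and 2 for the interaction (1). In the same order, where they moved by over 1.5 times, the paired fit with the replicate block gave 1159 and 551; the reduced fit gave 1958, 1105, 282, 813, 5 and 4; the block over 12 libraries gave 1606, 858, 141 and 571, and 3 for the interaction. Library weights gave 2142 for ACC, 606 for PFT-alpha in wild type, 1190 between them, 3293 for etr1-1 under PFT-alpha and 5 for the interaction. Without all wild-type replicate 3 libraries the counts were 12, 3, 13, 16, 11, 13 and 2 over the 7 comparisons. The paired fit without number 3 gave 637 and 151 (ACC, PFT-alpha against ACC), without number 1 gave 153 and 2, and without number 2 gave 0 and 1, with 1 for PFT-alpha against mock. A pseudocount of 0.1 gave 1 (PFT-alpha against ACC), 3 (etr1-1 in mock) and 0 (interaction), and one of 0.5 gave 1. No filter gave 1, 23, 18 and 13, and a filter at 5 TPM gave 1, 1, 0 and 0, for PFT-alpha against ACC, etr1-1 under PFT-alpha, PFT-alpha in etr1-1 and the interaction. Quantile scaling gave 3 and 2 for etr1-1 under PFT-alpha and the interaction. Leaving out 1 library gave 0 to 364 genes (ACC), 0 to 2 (PFT-alpha), 0 to 118 (PFT-alpha against ACC), 3 to 55 (etr1-1 in mock), 2 to 100 (etr1-1 under PFT-alpha), 2 to 200 (PFT-alpha in etr1-1) and 1 to 135 (interaction), with 0 members called each time. The cause of these shifts was not tested.

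Members called, 0 in the planned fit, were 2 and 1 with the 13-library block (ACC, PFT-alpha against ACC), 7 and 2 in the paired fit, 5 for ACC in the paired fit without number 3, and 8, 5 and 1 in the reduced fit with etr1-1 under PFT-alpha. They were 7, 3 and 1 with the block over 12 libraries, and 6, 2, 4 and 4 with library weights (ACC, PFT-alpha, PFT-alpha against ACC, etr1-1 under PFT-alpha). The median interaction of the members ranged from 0.06 to 0.70 when 1 library was left out.

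Signs turned in members that the planned fit did not call. MYBL2 became -0.060 with library weights and -0.067 without replicate 3 libraries (also in the paired fit) for ACC, -0.11 and -0.071 for PFT-alpha, and 0.12 for PFT-alpha against ACC in the paired fit without number 2. With weights CHS became 0.13 and MYB111 0.086 for PFT-alpha. MYB12 for PFT-alpha became 0.0089 with median-of-ratios scaling, 0.028 with quantile scaling, 0.048 and 0.0066 with pseudocounts of 0.1 and 0.5, and 0.076 and 0.0073 in the paired fit without numbers 2 and 1. C4H became -0.0078 for ACC in the paired fit without number 2, MYB4 0.031 for ACC without number 1, and MYB32 -0.16 for PFT-alpha against ACC without number 3. Leaving out 1 library gave, for ACC, -0.23 to 0.52 (C4H), -0.15 to 0.49 (MYB32) and -0.094 to 0.44 (MYBL2). For PFT-alpha it gave -0.49 to 0.25 (C4H), -0.78 to 0.33 (CHS), -0.35 to 0.054 (CCoAOMT1), -0.14 to 0.084 (MYB12), -0.59 to 0.28 (MYB111), -0.62 to 0.061 (MYB75), -0.016 to 0.69 (MYB7), -0.060 to 0.40 (MYB32) and -0.14 to 0.40 (MYBL2). For PFT-alpha against ACC it gave -0.70 to 0.18 (C4H), -0.44 to 0.17 (MYB7), -0.29 to 0.34 (MYB32) and -0.15 to 0.091 (MYBL2). MYB4 for PFT-alpha against mock ranged from 0.66 to 1.24. At these depths members under 1 TPM rest on few fragments.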
